A study of Mus musculus with 7 samples.

Results

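Overloaded plantaris muscle was compared with sham-operated plantaris muscle of the mouse on all 7 arrays of the series. The 5 arrays of muscle taken 1 week after overload surgery were set against the 2 arrays of sham-operated muscle, with the vehicle or tamoxifen treatment as a covariate. All mice had the genotype Pax7-DTA (from the strains Pax7-CreER and Rosa26-DTA) and were 4 months old. In this genotype tamoxifen activates a Cre recombinase where Pax7, a transcription factor of satellite cells, is expressed, and the recombinase switches on diphtheria toxin fragment A there. Satellite cells are the stem cells of skeletal muscle; the labels describe tamoxifen-treated muscle as lacking them and vehicle-treated muscle as holding them. The sham groups had 1 array each, vehicle and tamoxifen, both of males. Overload with vehicle had 1 array of a female and 1 of a male, and overload with tamoxifen had 1 of a female and 2 of males. Every group carried both transgenes, so no array shows muscle without them. The sample titles name single mice, while the design text speaks of a pool of left and right muscles and of 11 animals in relation to 1 µg of RNA, so the number of animals behind an array is uncertain. The p-values below measure only the spread between these arrays, which may be technical.

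The plantaris is a fast muscle of the calf that works together with the gastrocnemius and the soleus. When these partners are taken away in the operation called synergist ablation, the plantaris carries the load alone, and its fibres enlarge over the following weeks. In the early phase of this model the fibres change their cytoskeleton, membrane proteins and metabolism, while macrophages enter the tissue and connective tissue cells divide and lay down matrix. The matrix itself and the genes of myoblasts are set aside here, and the other gene families of the muscle are described.

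Levels are log2 of the deposited array signal plus 1. A difference is overload minus sham on that scale, given with its moderated standard error (SE) from limma. Each of 18193 genes is read through 1 probe set, the one with the highest mean. A gene was called higher or lower where its p, adjusted by Benjamini-Hochberg over all 18193 genes, was under 0.05. The background level was log2 5.7715 (a signal of 53.625), taken from 77 genes of olfactory, vomeronasal and taste receptors. Where both sham arrays lay at or under it, the change is written as "at least N-fold", the mean of the overload arrays against that level. For Fcgr1, Serpina3n, Steap2, Steap3, Clcf1, Fgf11, Fgfr4, Slc1a4, Ada, Ak5, Nr2f1 and Klf14 only 1 of 2 sham arrays was above that level, so their differences are fitted values against a level that was measured in part. Sham values are given as vehicle, then tamoxifen. Overload values are given in the order vehicle female, vehicle male, tamoxifen female, tamoxifen male 1 and tamoxifen male 2.

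The arrays looked like skeletal muscle. Of 13 markers of adult muscle fibres, among them Acta1, Ckm and Myh4, all lay above background on every array, and their summed signal was 482467 and 507029 on the sham arrays and from 338957 to 434099 on the overload arrays. Of these 13 markers 1 was called lower, against 11 after median centring and 0 after quantile normalization, so this count depended on the scaling. The sums were made on the deposited signals alone. Median array signals ran from 88.21 to 127.73 and were lowest on the sham arrays (88.21 and 99.36), which also had the fewest genes above background, 12148 and 12616 against 12729 to 13227. RNA quality, read as the 3'/5' ratio, ran from 0.807 to 0.906 for Gapdh and from 1.103 to 1.202 for actin, highest for both on tamoxifen overload male 2. Pax7 itself stood at 6.55 on the vehicle sham array and 5.4 on the tamoxifen one, at 8.1 and 8.45 on the vehicle overload arrays and at 6.92, 5.88 and 3.46 on the tamoxifen overload arrays. It was lower with tamoxifen than with vehicle within the sham pair and within the overload arrays, with no test made of that order. The part of these array properties in the results was not tested.

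Overload changed a large share of the measured genes. Of 18193 genes 5065 were called (27.8%), 3094 higher (17.0%) and 1971 lower (10.8%). The share of called members given for each family below is to be read beside 17.0% and 10.8%. On this scale large changes were mostly rises. Among called genes 653 were higher and 64 lower by at least 2 on the log2 scale, and 59 were higher and 1 lower by at least 4. These counts include genes under background in 1 group, whose fitted sizes depend on the pseudocount. With a pseudocount of 16 the difference of Ncapg went from 4.69 to 2.51, Cdca2 from 4.36 to 2.54 and Fam240b from -3.2 to -2.12. The share of such genes in these counts was not determined. On 23.1% of genes all overload arrays stood above both sham arrays, and on 18.3% all stood below both. The median difference over all genes was 0.04, and 61.1% of the called genes were higher. That split depended on scaling: 50.3% of the called genes were higher after quantile normalization and 29.7% after centring each array on its median, with the median of all genes at -0.108 and -0.311. The count of calls depended on the sham arrays. Without the tamoxifen one 1514 genes were called higher and 558 lower, and without the vehicle sham array 2082 and 1044. Over all genes median centring called 1881 higher and 4442 lower, and quantile normalization called 2346 and 2316. Family counts given below for these fits are to be read beside these counts of all 18193 genes. No gene was called for a different response with tamoxifen than with vehicle (lowest adjusted p = 0.136; 1059 genes at an unadjusted p under 0.05 in limma), a test in which each sham group is a single array. With no intensity trend in the variances that count was again 0, with 1205 unadjusted. A stricter fit, with a sex term and no intensity trend together, was added after the data were seen and called 1133 genes higher and 399 lower. In it 81 of the 184 genes named by rule missed the threshold, and the closing part lists them.

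**Figure D1:**
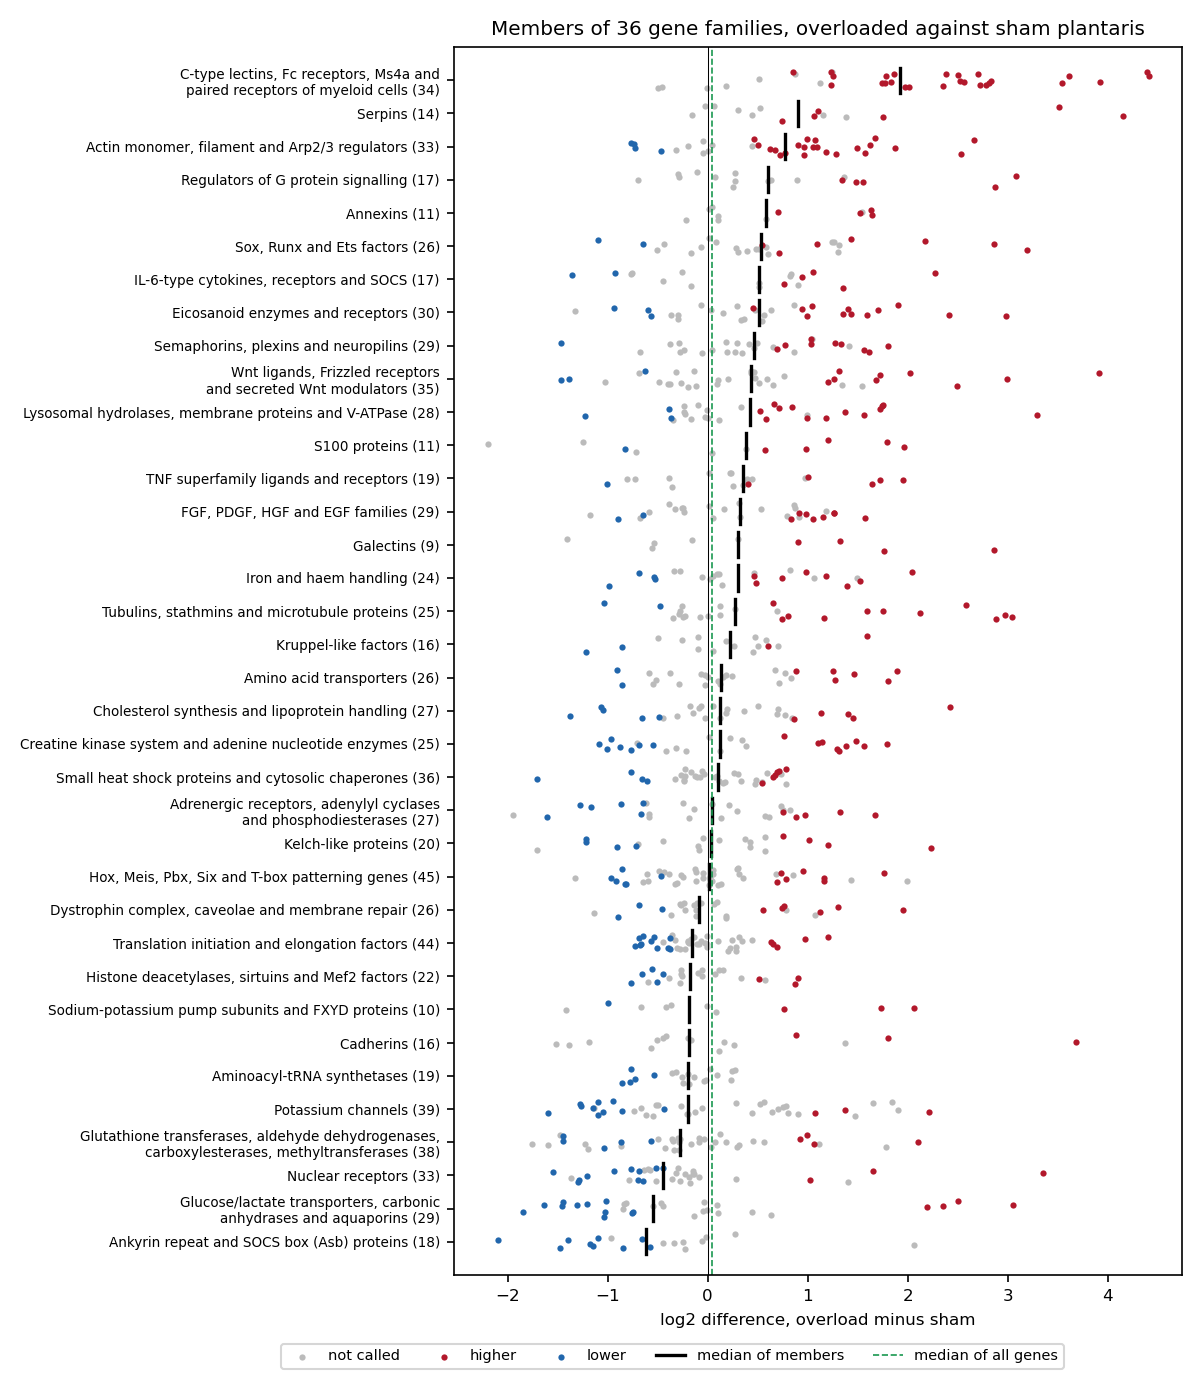
Log2 difference (overload minus sham, horizontal axis) of each measured member of 36 gene families, sorted by the family median (black bar), with members called higher in red, lower in blue and not called in grey. The myeloid receptors have the highest median at 1.92 and the Asb proteins the lowest at -0.62, beside a median of 0.04 over all genes (dashed line).

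Once matrix genes, myoblast genes and the other genes left out by rule were set aside, genes with large rises included a protease inhibitor, a growth factor, imprinted genes and genes of cell division. Serpinb1a, which encodes an inhibitor of neutrophil serine proteases, stood at 7.36 and 7.64 on the sham arrays and at 11.44, 11.81, 11.53, 11.72 and 11.84 on the overload arrays. Its difference was 4.15 ± 0.14 (adjusted p = 4.06e-07), 17.8-fold, with the 5 overload arrays within 11.44 to 11.84. Ptn (pleiotrophin, a heparin-binding growth factor) stood at 7.44 and 7.95 on the sham arrays and at 11.51, 11.28, 12.57, 12.34 and 13.1 on the overload arrays, a difference of 4.36 ± 0.22 (adjusted p = 4.2e-06). The tamoxifen overload arrays were all above the vehicle ones for Ptn, and all 5 lay far above the sham arrays. The imprinted zinc finger factor Plagl1 stood at 8.53 and 9.04 on the sham arrays and at 13.04, 12.37, 13.37, 13.4 and 13.13 on the overload arrays, a difference of 4.22 ± 0.17 (adjusted p = 8.78e-07). Rian, an imprinted noncoding RNA, stood at 7.07 and 6.87 on the sham arrays and at 11.61, 11.06, 11.09, 11.0 and 10.77 on the overload arrays, a difference of 4.17 ± 0.17 (adjusted p = 8.78e-07). Neither gene had an overload array near the sham range. Agtr2, the type 2 receptor for angiotensin II, was below background on both sham arrays and at 8.33, 7.44, 8.54, 8.88 and 8.06 on the overload arrays, at least 5.58-fold higher (adjusted p = 1.35e-05). Pmaip1 (Noxa, a protein that promotes apoptosis) was at least 4.57-fold higher and Cldn2, a tight junction claudin, at least 4.19-fold. The monocyte chemokine Ccl12 was at least 6.49-fold higher, the histidine and peptide transporter Slc15a3 at least 3.08-fold and the hyaluronan-degrading Cemip at least 2.79-fold. Ect2, which drives cytokinesis, was at least 3.86-fold higher, the condensin subunit Ncapg at least 1.68-fold and the mitotic chromatin protein Cdca2 at least 1.93-fold. Arfgef3 and AW551984 were at least 1.83-fold and 14.4-fold higher. With the mean of all probe sets the fitted differences of Cldn2, Cemip, Cdca2 and AW551984 were 3.01, 1.74, 2.11 and 2.02, against 4.52, 4.69, 4.36 and 4.2. All genes of this paragraph kept their calls in every alternative in which they were tested.

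Large falls among genes above background in both groups included enzymes of energy metabolism, a mitochondrial membrane protein, a potassium channel subunit and a methyltransferase. Pfkfb3 makes fructose 2,6-bisphosphate, the activator of the committed step of glycolysis. It stood at 11.43 and 11.09 on the sham arrays and at 8.27, 8.71, 8.64, 8.73 and 9.0 on the overload arrays, a difference of -2.6 ± 0.19 (adjusted p = 2.8e-05), or 6.07-fold lower. Gpt2, the mitochondrial alanine transaminase, stood at 12.34 and 12.11 on the sham arrays and at 10.03, 10.61, 9.86, 9.72 and 9.61 on the overload arrays, a difference of -2.21 ± 0.17 (adjusted p = 3.2e-05). Gdap1, a protein of the mitochondrial outer membrane whose mutation causes a peripheral neuropathy, stood at 11.19 and 10.76 on the sham arrays and at 8.68, 8.82, 8.56, 8.75 and 8.94 on the overload arrays, a difference of -2.21 ± 0.16 (adjusted p = 2.35e-05). For these 3 genes every overload array lay more than 1 log2 unit under the lower sham array. Kcng4, a modifier subunit of voltage-gated potassium channels, stood at 9.13 and 9.28 on the sham arrays and at 7.36, 6.95, 6.6, 6.98 and 6.73 on the overload arrays, a difference of -2.26 ± 0.24 (adjusted p = 0.000179). Ctxn3 (cortexin 3), Mettl11b (an N-terminal methyltransferase) and Fam131a differed by -2.23 ± 0.24, -2.41 ± 0.24 and -2.19 ± 0.25. These 7 genes kept their calls in every alternative. Fitted falls of the same size or larger were found near background. Crip3 stood at 7.74 and 8.31 on the sham arrays and at 3.33, 5.98, 5.12, 5.13 and 5.91 on the overload arrays and the zinc transporter Slc30a2 at 8.51 and 9.2 on the sham arrays and at 6.48, 7.03, 4.96, 6.63 and 6.53 on the overload arrays. Fam240b, Evpl, Snrpn, Cd27 and Slc32a1 lay under background on every overload array, with sham means at least 2.35, 1.32, 1.52, 1.52 and 1.44 times that level, and Ly6g6d was above it on 1 of 5. Each of these 8 genes lost its call in at least 2 alternatives, all without the tamoxifen sham array (adjusted p from 0.0876 to 0.309).

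**Figure D2:**
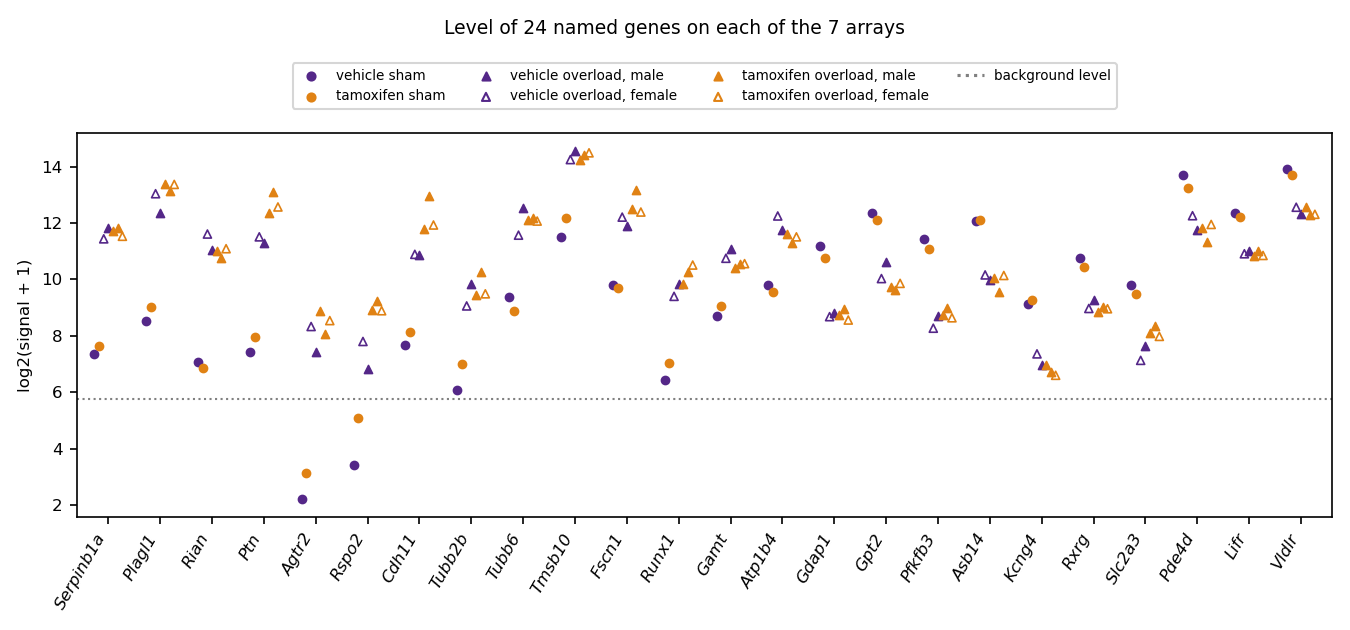
Level (log2 of signal plus 1, vertical axis) of 24 named genes on each of the 7 arrays, circles for sham and triangles for overload, purple for vehicle and orange for tamoxifen, open for females. In every gene drawn the 5 overload arrays lie wholly above or wholly below the 2 sham arrays. The genes were picked from called genes, and the rule for the largest rises and falls required groups without overlap. This separation therefore follows in part from the choice. Over all genes, 23.1% had every overload array above both sham arrays and 18.3% had every one below. Serpinb1a is at 11.44 to 11.84 against 7.36 and 7.64, and Agtr2 and Rspo2 have both sham arrays under the background level (dotted).

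Receptors of myeloid cells formed the family with the highest share of rises. C-type lectins and paired receptors such as Trem2 recognise sugars, lipids and dying cells, Fc receptors bind antibody, and Tyrobp and Fcer1g carry their signals inward. Of 34 measured myeloid receptors 26 were called higher and 0 lower (76.5% and 0.0%), against 17.0% and 10.8% of all genes, and the median difference was 1.92. Trem2 was below background on both sham arrays and at 7.46, 8.34, 9.17, 8.47 and 8.62 on the overload arrays, at least 6.25-fold higher (adjusted p = 2.55e-05). Clec4d stood at 3.47 and 3.93 on the sham arrays and at 6.85, 7.84, 8.13, 8.35 and 9.84 on the overload arrays, at least 5.39-fold higher. Clec4n (Dectin-2) stood at 5.59 and 5.69 on the sham arrays and at 8.62, 8.62, 9.24, 9.64 and 10.59 on the overload arrays, at least 11.9-fold higher. None of the overload arrays overlapped the sham arrays for these 3 genes. With the mean of all probe sets the fitted difference of Trem2 was 2.46, against 4.41. Fcgr1, the high-affinity Fc receptor for IgG, stood at 3.09 and 6.23 on the sham arrays and at 8.5, 8.11, 9.36, 8.2 and 9.46 on the overload arrays, where the sham arrays themselves were 3 log2 units apart and 1 of 2 lay above background. Its fitted difference was 3.92 ± 0.52 (adjusted p = 0.00058).

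The rise of these receptors went with the macrophage markers. All 12 macrophage and monocyte markers, among them Adgre1, Cd68 and Csf1r, were called higher (11 without the tamoxifen sham array), and their summed signal was 6717 and 11985 on the sham arrays and from 32233 to 51179 on the overload arrays. Mrc1 is in both lists. Other blood cells gave little signal. Of 9 lymphocyte markers (T, B and natural killer cells) none was called in limma at an adjusted p under 0.05 (also 0 without either sham array), with sums of 214 and 355 on the sham arrays and from 229 to 480 on the overload arrays and with Cd3e, Cd79a and Ncr1 below background on every array. Of 7 neutrophil markers 1 was higher, with sums of 610 and 1160 on the sham arrays and from 544 to 2950 on the overload arrays. Of 8 mast cell and eosinophil markers 1 was higher, and Siglecf, Epx and Prg2 stayed below background throughout. In whole muscle, more cells of a type and more RNA per cell cannot be told apart, and the part of the macrophage signal in the other results was not tested.

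The promoters of these receptors were searched for the motif of a factor of their lineage, and a link between that factor and their rise was not tested. Spi1 encodes PU.1, the Ets factor of macrophages, and stood at 6.55 and 6.66 on the sham arrays and at 7.61, 7.64, 8.38, 7.92 and 8.9 on the overload arrays, a difference of 1.43 ± 0.29 (adjusted p = 0.00513). Spi1 missed the threshold without the tamoxifen sham array (adjusted p = 0.127). The core of the PU.1 motif, GAGGAA, was searched on both strands in the 250 bases before each start listed by RefSeq (GRCm38.p6). It was found in 20 of 32 windows (62.5%) of the 28 of 34 members with a listed start, against 23.3% of 32851 windows of all genes. This share covers members called and not called, of a list picked for myeloid cells, so it does not bear on the rise. A match describes the letters and does not show binding. The stretches of 150 bases below lie before the start of transcription, written 5' to 3' on the strand of the gene in GRCm38.p6, with the motif in capitals (TTCCTC is its reverse complement).
Trem2, chr17:48346251-48346400, plus strand: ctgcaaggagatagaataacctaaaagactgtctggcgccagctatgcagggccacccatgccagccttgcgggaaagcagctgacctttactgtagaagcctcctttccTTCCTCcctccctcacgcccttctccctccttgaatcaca
Fcgr1, chr3:96293970-96294119, minus strand: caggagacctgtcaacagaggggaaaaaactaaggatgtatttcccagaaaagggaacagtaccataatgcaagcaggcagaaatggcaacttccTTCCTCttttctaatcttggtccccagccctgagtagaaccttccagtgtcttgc
Clec4d, chr6:123261857-123262006, plus strand: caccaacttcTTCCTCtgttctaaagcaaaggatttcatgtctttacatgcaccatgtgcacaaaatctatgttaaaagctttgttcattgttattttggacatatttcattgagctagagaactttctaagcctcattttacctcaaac
The stretches of Trem2 and Fcgr1 end 1 base before the start, with the motif at 40 and 55 bases from it, while that of Clec4d begins 250 bases before it and holds the motif at 240.

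Genes that serve the uptake and digestion of material were also measured. In lysosomes, acid hydrolases digest what the cell takes up and a proton pump keeps them acidic. Of 28 measured lysosomal genes 13 were called higher and 3 lower (46.4% and 10.7%), with a median of 0.42; the counts were 9 and 10 after median centring. Atp6v0d2, a pump subunit of macrophages and osteoclasts, stood at 3.08 and 5.43 on the sham arrays and at 6.68, 7.64, 7.65, 7.67 and 8.7 on the overload arrays, at least 3.72-fold higher (adjusted p = 0.000789). Lipa, the acid lipase, differed by 1.75 ± 0.17 (adjusted p = 0.0001) with the overload arrays within 9.61 to 10.15. The hydrolases Gusb (beta-glucuronidase) and Glb1 (beta-galactosidase) differed by 1.74 ± 0.15 and 1.72 ± 0.21. Npc1, which exports cholesterol from lysosomes, moved the other way and stood at 10.49 and 9.82 on the sham arrays and at 8.67, 8.95, 8.86, 8.99 and 9.12 on the overload arrays, a difference of -1.23 ± 0.2 (adjusted p = 0.00157). Without the vehicle sham array or the tamoxifen sham array, 10 of these lysosomal genes were called higher and 1 lower.

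Lipid mediators and lipoproteins came next, and which cells expressed their genes was not tested. Eicosanoid genes make and sense prostaglandins and leukotrienes. Of 30 measured eicosanoid genes 12 were called higher and 3 lower (40% and 10%), with a median of 0.51. Ptgs2 (cyclooxygenase 2) stood at 3.72 and 4.85 on the sham arrays and at 6.85, 6.47, 8.47, 6.79 and 8.33 on the overload arrays, at least 3.06-fold higher (adjusted p = 0.00132). Ltc4s, which makes leukotriene C4, was at least 1.66-fold higher. The prostaglandin D synthases Hpgds and Ptgds were at least 2.33-fold and 2.17-fold higher. Pla2g7, which degrades platelet-activating factor, differed by -0.94 ± 0.25 (adjusted p = 0.0194). Hpgds, Ptgds and Pla2g7 lost the call without the tamoxifen sham array (adjusted p from 0.0594 to 0.0927), and Ptgds and Pla2g7 did so without the vehicle sham array and with no intensity trend (adjusted p from 0.0612 to 0.225). Pla2g7 had no call on male arrays alone (adjusted p = 0.0674), and Ptgds had none with the mean of all probe sets (adjusted p = 0.0802). Leaving out the vehicle sham array, 9 of these eicosanoid genes were called higher and 1 lower, with 5 and 1 without the tamoxifen sham array. In cholesterol handling, of 27 measured cholesterol genes 5 were called higher and 5 lower (18.5% and 18.5%), against 17.0% and 10.8% of all genes. Their median was 0.12, but -0.14 after quantile normalization and -0.24 after median centring. The counts were 5 and 6 after quantile normalization and 5 and 8 after median centring. Apoe, the lipoprotein that carries cholesterol out of macrophages, stood at 9.35 and 10.0 on the sham arrays and at 11.96, 12.07, 12.32, 12.02 and 12.3 on the overload arrays, a difference of 2.42 ± 0.14 (adjusted p = 7.3e-06). The cholesterol exporters Abca1 and Abcg1 differed by 1.45 ± 0.15 and 1.4 ± 0.2. Vldlr, the receptor for very low density lipoprotein, fell from 13.91 and 13.71 to between 12.29 and 12.58, a difference of -1.38 ± 0.12 (adjusted p = 6.97e-05). With the removal of the vehicle sham array or the tamoxifen sham array, 5 of these cholesterol genes were called higher and 3 lower.

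Serpins inhibit proteases, and members of the family rose without a called fall. Of 14 measured serpins 6 were called higher and 0 lower (42.9% and 0.0%), with a median of 0.9. Serpina3n, an acute phase protein, stood at 6.52 and 4.17 on the sham arrays and at 8.39, 8.63, 8.61, 9.35 and 9.15 on the overload arrays. Its sham arrays were more than 2 log2 units apart with 1 of 2 above background, and its fitted difference was 3.51 ± 0.52 (adjusted p = 0.00107). Serpinb8 differed by 1.75 ± 0.32 and Serpinf1, the antiangiogenic pigment epithelium-derived factor, by 1.1 ± 0.14 (adjusted p = 0.000493). Serpinb8 missed the threshold without the vehicle sham array (adjusted p = 0.0573). For Serpina3n the difference of 3.51 became 1.99 without the tamoxifen sham array. Iron and haem handling changed both ways: of 24 measured iron and haem genes 8 were called higher and 4 lower (33.3% and 16.7%), with a median of 0.3, but -0.06 after median centring; the counts were 5 and 4 after quantile normalization and 3 and 7 after median centring. Steap2, a metal reductase, stood at 5.76 and 5.87 on the sham arrays and at 7.63, 7.49, 8.1, 7.78 and 8.51 on the overload arrays, a difference of 2.04 ± 0.27 (adjusted p = 0.000553). The iron transporter of phagosomes, Slc11a1, differed by 1.18 ± 0.2, and Slc40a1 (ferroportin, which exports iron) by -0.99 ± 0.26 (adjusted p = 0.0178). Steap1 was at least 1.97-fold higher. Steap3 stood at 7.56 and 5.39 on the sham arrays and at 7.52, 8.17, 7.87, 7.94 and 8.17 on the overload arrays, so that 1 overload array lay under the vehicle sham array. Slc40a1, Steap1 and Steap3 lost the call without the tamoxifen sham array and with no intensity trend (adjusted p from 0.0606 to 0.671), and Steap1 and Steap3 did so without tamoxifen overload male 1, after median centring and after quantile normalization (adjusted p from 0.0501 to 0.0822). Steap3 had no call without tamoxifen overload male 2, without the female tamoxifen overload array, without the male vehicle overload array and with the mean of all probe sets (adjusted p from 0.0529 to 0.202), and Slc40a1 had none without the vehicle sham array and with no treatment term (adjusted p from 0.0868 to 0.202). Steap1 missed the threshold on male arrays alone (adjusted p = 0.0558). For Slc40a1 the difference of -0.99 became -0.66 on male arrays alone. For Steap3 the difference of 1.52 became 0.55 with the mean of all probe sets, 2.61 without the vehicle sham array and 0.29 without the tamoxifen sham array. In the fit without the vehicle sham array, 6 of these iron and haem genes were called higher and 2 lower, with 4 and 0 without the tamoxifen sham array.

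**Figure D3:**
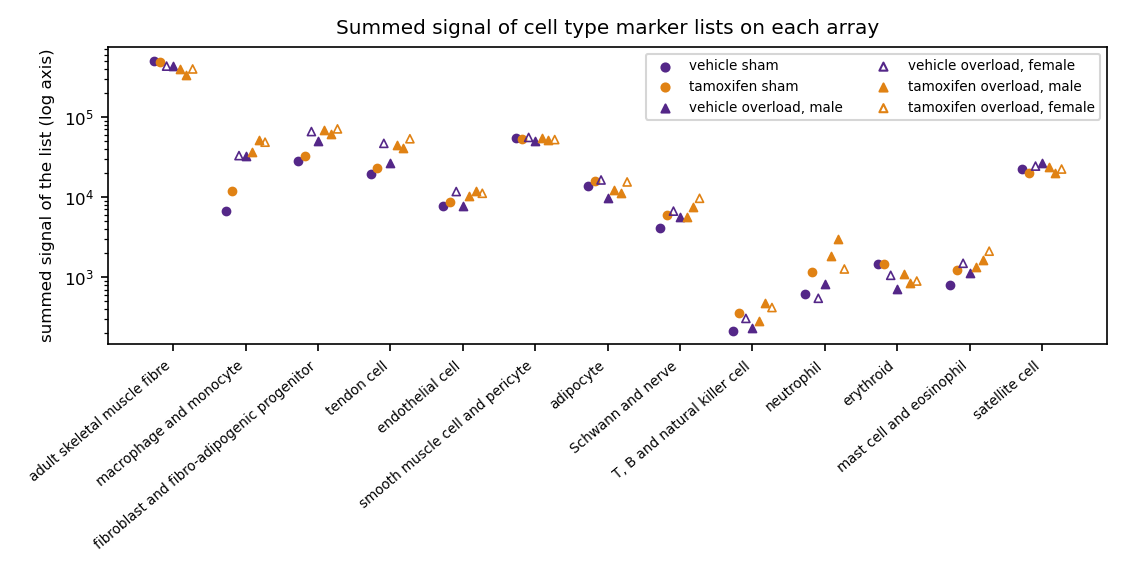
Summed array signal (vertical log axis) of the marker genes of 13 cell types on each of the 7 arrays, circles for sham and triangles for overload, purple for vehicle and orange for tamoxifen, open for females. Macrophage sums rise from 6717 and 11985 to at least 32233, while muscle fibre sums are lower on all overload arrays and smooth muscle sums overlap between the groups.

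Most measured regulators of the actin cytoskeleton were called higher. Actin polymerises from monomers that thymosins and profilins hold, branches through the Arp2/3 complex, is cut by cofilins and is bundled by fascin and plastin. Of 33 measured actin regulators 22 were called higher and 4 lower (66.7% and 12.1%), against 17.0% and 10.8% of all genes, with a median of 0.77; the counts were 16 and 7 after median centring. Fscn1 (fascin) stood at 9.79 and 9.68 on the sham arrays and at 12.21, 11.91, 12.39, 12.5 and 13.16 on the overload arrays, a difference of 2.66 ± 0.23 (adjusted p = 5.72e-05). Tmsb10, a thymosin that binds actin monomers, stood at 11.51 and 12.19 on the sham arrays and at 14.25, 14.57, 14.49, 14.25 and 14.41 on the overload arrays, a difference of 2.53 ± 0.17 (adjusted p = 1.63e-05). Neither had an overload array near the sham range. Lcp1 (L-plastin) and Coro1a (coronin 1A), both found mainly in blood cells, differed by 1.87 ± 0.23 and 1.67 ± 0.18. Pfn2, the profilin isoform of nerve and muscle, went down by a difference of -0.77 ± 0.16 (adjusted p = 0.00523). Pfn2 lost the call without the tamoxifen sham array and without the vehicle sham array (adjusted p from 0.0612 to 0.0809). For Pfn2 the difference of -0.77 became -0.5 after quantile normalization. After removal of the vehicle sham array, 18 of these actin regulators were called higher and 2 lower, with 12 and 1 without the tamoxifen sham array. The part of macrophages and other cell types in this rise was not tested. The CArG box, the site of serum response factor, which controls many actin genes, was found in 2 of 37 windows of 250 bases before the starts of the 30 members with a listed start (5.41%), against 1.47% of all 32851 windows. The 2 members were Actg1 and Arpc4, and that of Actg1 is given here as the clearer one, at 90 bases before the start (GRCm38.p6, motif in capitals).
Actg1, chr11:120348496-120348645, minus strand: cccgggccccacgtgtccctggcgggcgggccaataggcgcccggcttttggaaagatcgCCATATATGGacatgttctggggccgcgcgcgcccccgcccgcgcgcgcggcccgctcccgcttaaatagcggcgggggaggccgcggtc

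Some tubulin isotypes were called higher, while others, chosen after their values were seen, were not called or, for Tuba8, called lower in the main fit. Microtubules are built of alpha and beta tubulin, whose isotypes differ between tissues. Of 25 measured microtubule genes 11 were called higher and 2 lower (44% and 8%), with a median of 0.27, but -0.09 after median centring; the counts were 9 and 7 after median centring. Tubb2b stood at 6.08 and 6.99 on the sham arrays and at 9.06, 9.84, 9.49, 9.45 and 10.27 on the overload arrays, a difference of 3.04 ± 0.29 (adjusted p = 9.73e-05). Tubb6, the isotype that rises in regenerating muscle, stood at 9.36 and 8.89 on the sham arrays and at 11.57, 12.53, 12.07, 12.11 and 12.17 on the overload arrays, a difference of 2.97 ± 0.23 (adjusted p = 3.11e-05). Tubb2a stood at 8.29 and 8.95 on the sham arrays and at 11.26, 11.1, 11.27, 10.74 and 11.72 on the overload arrays, a difference of 2.58 ± 0.24 (adjusted p = 8.03e-05). All 3 beta tubulins were higher on every overload array than on either sham array. Ckap4, which links the endoplasmic reticulum to microtubules, differed by 2.88 ± 0.17 (adjusted p = 8.93e-06). Mtus1, a microtubule-associated tumour suppressor, was lower by a difference of -1.04 ± 0.11 (adjusted p = 0.000173). Other isotypes, chosen after their values were seen, did not rise: Tuba8, the isotype of muscle and testis, differed by -0.48 ± 0.13 (adjusted p = 0.0203), and Tubb4b and Tuba4a, at -0.23 ± 0.12 and -0.29 ± 0.13, were not called. Both were called lower after median centring, where Tuba4a stood at -0.64, against 0.02 after quantile normalization. Tuba8 had no call without the tamoxifen sham array, without the vehicle sham array, on male arrays alone, with no intensity trend and with a sex term (adjusted p from 0.0584 to 0.231). For Tubb6 the difference of 2.97 became 0.93 with the mean of all probe sets. For Tuba8 the difference of -0.48 became -0.79 with the mean of all probe sets. Tubulin genes are alike in sequence, and how far their probes separate them was not tested. Omitting the vehicle sham array or the tamoxifen sham array, 8 of these microtubule genes were called higher and 1 lower.

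Annexins and S100 proteins bind calcium at membranes, where they take part in repair. Of 11 measured annexins 4 were called higher and 0 lower (36.4% and 0.0%), with a median of 0.58. Anxa2 stood at 10.81 and 11.62 on the sham arrays and at 13.01, 12.42, 13.05, 12.89 and 13.17 on the overload arrays, a difference of 1.64 ± 0.17 (adjusted p = 0.000173). Its partner S100a10 stood at 9.88 and 10.76 on the sham arrays and at 12.29, 11.88, 12.14, 12.2 and 12.24 on the overload arrays, a difference of 1.79 ± 0.17 (adjusted p = 0.000111). Both partners were higher on all 5 overload arrays than on either sham array. Anxa1, Anxa5 and Anxa4 differed by 1.52 ± 0.18, 1.63 ± 0.16 and 0.7 ± 0.14. Of 11 measured S100 genes 5 were called higher and 1 lower (45.5% and 9.09%), with a median of 0.38; the counts were 5 and 2 after quantile normalization and 4 and 3 after median centring. S100a4, a protein of fibroblasts and macrophages, differed by 1.96 ± 0.28 (adjusted p = 0.000769), and S100a13 and S100a6 by 1.2 ± 0.17 and 0.98 ± 0.16. S100a1, the S100 protein of muscle fibres, moved down, from 12.49 and 12.35 to a range of 11.26 to 11.76 and a difference of -0.83 ± 0.12 (adjusted p = 0.00103). Anxa4 missed the threshold without the tamoxifen sham array and after median centring (adjusted p from 0.0642 to 0.0958), and Anxa2 did so with the mean of all probe sets (adjusted p = 0.0657). For Anxa2 the difference of 1.64 became 0.68 with the mean of all probe sets.

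Galectins and cadherins act in adhesion. The galectin list held 9 measured genes and included Lgals3bp, which binds galectin 3 and is not itself a galectin. Of these 9 genes 4 were called higher, Lgals3bp among them, and 0 lower (44.4% and 0.0%). Their median was 0.3, but -0.05 after median centring. Lgals3, the galectin of macrophages, stood at 8.74 and 9.34 on the sham arrays and at 11.12, 12.46, 12.01, 11.77 and 12.31 on the overload arrays, a difference of 2.86 ± 0.3 (adjusted p = 0.000161). Lgals1 was bright already in sham muscle and differed by 0.9 ± 0.12 (adjusted p = 0.000506), Lgals9 by 1.32 ± 0.31 and the galectin 3 binding protein Lgals3bp by 1.76 ± 0.3. Of 16 measured cadherins 3 were called higher and 0 lower (18.8% and 0.0%), against 17.0% and 10.8% of all genes. Their median was -0.19. Cdh11, the cadherin of mesenchymal cells, stood at 7.66 and 8.14 on the sham arrays and at 10.89, 10.87, 11.93, 11.8 and 12.97 on the overload arrays, a difference of 3.68 ± 0.3 (adjusted p = 4.49e-05), or 12.8-fold. Its level was highest on tamoxifen overload male 2 and lowest on the vehicle overload arrays, all above sham. Cdh2 (N-cadherin) and Cdh13 (T-cadherin) differed by 1.8 ± 0.29 and 0.88 ± 0.16. Lgals9 and Cdh2 lost the call without the tamoxifen sham array (adjusted p from 0.0576 to 0.119), and Lgals9 and Cdh13 did so without the vehicle sham array (adjusted p from 0.054 to 0.0845). Cdh13 had no call after median centring (adjusted p = 0.0507), and Lgals9 had none with no intensity trend (adjusted p = 0.0695). Markers of connective tissue cells were also measured. Of 9 markers of fibroblasts and fibro-adipogenic progenitors 8 were called higher (7 without either sham array), with sums of 28378 and 32950 on the sham arrays and from 50586 to 70974 on the overload arrays, and their part in the result was not tested.

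Among secreted signals, the Wnt family showed rises of its extracellular modulators. Wnt ligands bind Frizzled receptors, secreted frizzled-related proteins hold the ligands, and R-spondins strengthen the signal. Of 35 measured Wnt genes 9 were called higher and 3 lower (25.7% and 8.57%), against 17.0% and 10.8% of all genes. Their median was 0.43, and the counts were 7 and 8 after median centring. Rspo2 (R-spondin 2) was below background on both sham arrays and at 7.8, 6.82, 8.89, 8.91 and 9.22 on the overload arrays, at least 5.89-fold higher (adjusted p = 3.5e-05). Its fitted difference was 1.94, against 3.91, with the mean of all probe sets. Sfrp2 stood at 6.1 and 7.79 on the sham arrays and at 8.37, 9.42, 10.0, 10.77 and 12.11 on the overload arrays, a difference of 2.99 ± 0.48 (adjusted p = 0.00151). Sfrp1 stood at 7.33 and 7.25 on the sham arrays and at 9.02, 9.24, 9.6, 10.17 and 11.31 on the overload arrays, a difference of 2.49 ± 0.42 (adjusted p = 0.00196). For Sfrp1 and Sfrp2 the 3 tamoxifen overload arrays stood above the 2 vehicle ones. That order was not tested, since the interaction compares changes from sham and not the overload levels themselves. Sfrp4 differed by 2.02 ± 0.28. The ligand Wnt4 went the other way, from 9.11 and 9.36 to a range of 7.28 to 8.15 and a difference of -1.47 ± 0.23 (adjusted p = 0.00144). Sfrp1 and Wnt4 missed the threshold without the tamoxifen sham array (adjusted p from 0.0628 to 0.0789). Without the tamoxifen sham array, 7 of these Wnt genes were called higher and 1 lower.

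Cytokines of the IL-6 type signal through gp130 and STAT3, which induces the feedback inhibitor SOCS3. Of 17 measured IL-6-type genes 5 were called higher and 2 lower (29.4% and 11.8%), with a median of 0.51; the counts were 4 and 4 after quantile normalization and 4 and 6 after median centring. Socs3 stood at 8.03 and 8.21 on the sham arrays and at 10.64, 9.51, 10.89, 10.24 and 10.92 on the overload arrays, a difference of 2.27 ± 0.29 (adjusted p = 0.000495). Socs2, a feedback inhibitor of growth hormone signalling, differed by 1.35 ± 0.27, and the ligand Clcf1 by 1.05 ± 0.29. Lifr, the receptor of leukaemia inhibitory factor, fell, from 12.34 and 12.23 to a range of 10.82 to 11.01 and a difference of -1.36 ± 0.1 (adjusted p = 3.14e-05). Socs2 and Clcf1 lost the call without the tamoxifen sham array (adjusted p from 0.126 to 0.154), and Clcf1 did so without the vehicle sham array, on male arrays alone, after median centring and after quantile normalization (adjusted p from 0.0687 to 0.122). For Socs2 the difference of 1.35 became 0.72 without the tamoxifen sham array. For Lifr the difference of -1.36 became -0.79 with the mean of all probe sets. Leaving out the vehicle sham array, 4 of these IL-6-type genes were called higher and 1 lower, with 1 and 2 without the tamoxifen sham array. In the TNF superfamily, of 19 measured TNF superfamily genes 5 were called higher and 1 lower (26.3% and 5.26%), with a median of 0.35, but -0.01 after median centring; the counts were 3 and 2 after quantile normalization and 2 and 4 after median centring. The decoy receptors Tnfrsf23 and Tnfrsf22 stood at 6.41 and 6.21 and at 6.52 and 7.42 on the sham arrays. They differed by 1.95 ± 0.25 (adjusted p = 0.000466) and 1.72 ± 0.24 (adjusted p = 0.000762), with no overlap of the groups. Tnfrsf11b (osteoprotegerin) was at least 1.21-fold higher, a bound close to 1. Tnfrsf19 (TROY) was lower by a difference of -1.01 ± 0.15 (adjusted p = 0.00094). Tnfrsf11b had no call without the tamoxifen sham array, without tamoxifen overload male 1, without the female vehicle overload array, without the male vehicle overload array, without the vehicle sham array, on male arrays alone, with the mean of all probe sets, after median centring, with no intensity trend, with a pseudocount of 16 and after quantile normalization (adjusted p from 0.0535 to 0.794). With the removal of the vehicle sham array or the tamoxifen sham array, 2 of these TNF superfamily genes were called higher and 1 lower, with 3 and 1 without the female vehicle overload array and 3 and 2 without the male vehicle overload array.

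Growth factors of the FGF, PDGF, HGF and EGF families changed in both directions. Of 29 measured growth factor genes 8 were called higher and 2 lower (27.6% and 6.9%), against 17.0% and 10.8% of all genes. Their median was 0.32, but -0.04 after median centring. The counts were 4 and 4 after quantile normalization and 4 and 7 after median centring. Egfr, the epidermal growth factor receptor, stood at 9.39 and 9.81 on the sham arrays and at 10.7, 10.25, 11.06, 11.31 and 11.27 on the overload arrays, a difference of 1.26 ± 0.15 (adjusted p = 0.000325), and its ligand Hbegf differed by 1.26 ± 0.33. Fgfr4, an FGF receptor of satellite cells and myoblasts, stood at 6.86 and 4.95 on the sham arrays and at 7.72, 8.27, 7.16, 6.9 and 6.65 on the overload arrays, with the vehicle and tamoxifen sham arrays nearly 2 log2 units apart and the groups overlapping. Its difference of 1.57 ± 0.31 (adjusted p = 0.00475) was not called without the treatment term, where it stood at 1.44. Fgf11 differed by 1.15 ± 0.34, and Fgf1, which fibres express, by -0.9 ± 0.17 (adjusted p = 0.00395). Hbegf, Fgfr4, Fgf11 and Fgf1 missed the threshold without the tamoxifen sham array (adjusted p from 0.0569 to 0.261), and Fgf11 did so without tamoxifen overload male 2 and without the male vehicle overload array (adjusted p from 0.0611 to 0.0747). Hbegf, Fgf11 and Fgf1 lost the call without the vehicle sham array (adjusted p from 0.0547 to 0.283), and Hbegf did so on male arrays alone (adjusted p = 0.0604). Egfr, Fgfr4 and Fgf11 had no call with the mean of all probe sets (adjusted p from 0.164 to 0.739), and Hbegf and Fgf11 had none after median centring, with no intensity trend and after quantile normalization (adjusted p from 0.0517 to 0.0929). Fgfr4 missed the threshold with no treatment term (adjusted p = 0.0843). For Egfr the difference of 1.26 became 0.42 with the mean of all probe sets. For Fgfr4 the difference of 1.57 became 0.24 with the mean of all probe sets. For Fgf11 the difference of 1.15 became 0.72 with the mean of all probe sets and 0.74 without the vehicle sham array. In the fit without the vehicle sham array, 5 of these growth factor genes were called higher and 0 lower, with 2 and 0 without the tamoxifen sham array and 8 and 4 without tamoxifen overload male 1. Semaphorins guide axons, vessels and immune cells through plexins. Of 29 measured semaphorin and plexin genes 9 were called higher and 1 lower (31% and 3.45%), with a median of 0.46; the counts were 7 and 5 after median centring. The receptors Plxnc1 and Plxna3 stood at 6.36 and 6.54 and at 6.28 and 6.21 on the sham arrays and differed by 1.61 ± 0.25 (adjusted p = 0.00145) and 1.56 ± 0.22 (adjusted p = 0.000856). Sema3f differed by 1.8 ± 0.34 and Sema6c by -1.47 ± 0.22 (adjusted p = 0.0012). Sema3f and Sema6c lost the call without the tamoxifen sham array (adjusted p from 0.0513 to 0.103). For Sema3f the difference of 1.8 became 0.93 without the tamoxifen sham array. For Sema6c the difference of -1.47 became -0.96 with the mean of all probe sets. After removal of the tamoxifen sham array, 5 of these semaphorin and plexin genes were called higher and 0 lower.

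Intracellular regulators of receptor signals were also measured. RGS proteins switch off G protein alpha subunits. Of 17 measured RGS genes 5 were called higher and 0 lower (29.4% and 0.0%), with a median of 0.6; the counts were 5 and 2 after median centring. Rgs10 stood at 8.46 and 8.48 on the sham arrays and at 9.81, 9.65, 10.38, 9.96 and 10.5 on the overload arrays, a difference of 1.55 ± 0.18 (adjusted p = 0.000294). Rgs16 and Rgs1 were at least 3.52-fold and 1.39-fold higher, Rgs1 with 3 of 5 overload arrays above background, and Rgs19 differed by 1.48 ± 0.23. Rgs1 had no call without the tamoxifen sham array (adjusted p = 0.0895), and Rgs16 had none without the vehicle sham array (adjusted p = 0.0501). Omitting the tamoxifen sham array, 3 of these RGS genes were called higher and 0 lower. Adenylyl cyclases make cyclic AMP and phosphodiesterases remove it. Of 27 measured genes of adrenergic and cyclic nucleotide signalling 5 were called higher and 6 lower (18.5% and 22.2%), with a median of 0.04, but -0.16 after quantile normalization and -0.32 after median centring; the counts were 3 and 7 after quantile normalization and 2 and 9 after median centring. Adcy7, the cyclase of blood cells, stood at 8.82 and 9.31 on the sham arrays and at 10.49, 10.51, 11.25, 10.61 and 11.04 on the overload arrays, a difference of 1.67 ± 0.16 (adjusted p = 0.000113). The cyclic AMP phosphodiesterase Pde4d, bright in sham muscle, stood at 13.69 and 13.24 on the sham arrays and at 12.26, 11.76, 11.95, 11.81 and 11.33 on the overload arrays, a difference of -1.61 ± 0.18 (adjusted p = 0.000254). Pde7a was lower by a difference of -1.28 ± 0.13 (adjusted p = 0.000159). Pde10a differed by 1.32 ± 0.27 with overlapping groups. Pde10a missed the threshold without the tamoxifen sham array, without the vehicle sham array and with no treatment term (adjusted p from 0.0514 to 0.0806). Without the vehicle sham array, 2 of these genes of adrenergic and cyclic nucleotide signalling were called higher and 5 lower, with 1 and 3 without the tamoxifen sham array.

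Genes of the fibre membrane and of ion balance changed by member. The sodium-potassium pump restores the ion gradients after each action potential. Of 10 measured pump genes 3 were called higher and 1 lower (30% and 10%), with a median of -0.19; the counts were 3 and 2 after quantile normalization and 3 and 5 after median centring. Atp1b4, a muscle protein of the beta subunit family that sits in the nuclear envelope, stood at 9.79 and 9.56 on the sham arrays and at 12.25, 11.76, 11.51, 11.6 and 11.29 on the overload arrays, a difference of 2.06 ± 0.16 (adjusted p = 3.11e-05). Atp1b3 differed by 0.76 ± 0.12 and the pump regulator Fxyd5 by 1.73 ± 0.24, while the beta 1 subunit Atp1b1 differed by -1.0 ± 0.16 (adjusted p = 0.00162). Atp1b1 lost the call without the tamoxifen sham array (adjusted p = 0.0565). Leaving out the tamoxifen sham array, 3 of these pump genes were called higher and 0 lower, with 3 and 2 without the female vehicle overload array or tamoxifen overload male 2. Potassium channels repolarise the fibre. Of 39 measured potassium channel genes 3 were called higher and 10 lower (7.69% and 25.6%), with a median of -0.2 and 19 members above background on all arrays. Kcna7, a voltage-gated channel of skeletal muscle, stood at 12.34 and 12.29 on the sham arrays and at 11.13, 11.3, 10.95, 11.06 and 10.6 on the overload arrays, a difference of -1.28 ± 0.14 (adjusted p = 0.000237). The auxiliary subunit Kcnab1 differed by -1.6 ± 0.25 (adjusted p = 0.0015). Among rises, Kcnj15 was at least 1.61-fold higher and Kcne4 differed by 1.37 ± 0.26. Kcnj15 and Kcne4 had no call without the tamoxifen sham array (adjusted p from 0.0656 to 0.0911). With the removal of the vehicle sham array, 5 of these potassium channel genes were called higher and 6 lower, with 1 and 3 without the tamoxifen sham array and 5 and 9 without the male vehicle overload array or tamoxifen overload male 1.

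Among transporters of fuel, gas and water more members fell than rose. Muscle takes up glucose through the Slc2a (GLUT) family, exchanges lactate through the Slc16a (MCT) family, buffers carbon dioxide with carbonic anhydrases and moves water through aquaporins. Of 29 measured transporters, carbonic anhydrases and aquaporins 4 were called higher and 11 lower (13.8% and 37.9%), with a median of -0.55. Slc2a3 (GLUT3) stood at 9.8 and 9.5 on the sham arrays and at 7.13, 7.65, 7.98, 8.1 and 8.35 on the overload arrays, a difference of -1.85 ± 0.26 (adjusted p = 0.000771). Members further down, chosen after their values were seen, were Slc2a4 (GLUT4, the insulin-responsive transporter) at -1.04 ± 0.19 (adjusted p = 0.00288), the lactate exporter Slc16a3 at -1.45 ± 0.18 (adjusted p = 0.000404), the water channel Aqp4 at -1.46 ± 0.27 (adjusted p = 0.00335) and the membrane-bound anhydrase Car14 at -1.64 ± 0.26 (adjusted p = 0.00134). Slc2a1 (GLUT1), at 0.09 ± 0.19, and the abundant fibre anhydrase Car3, at -0.14 ± 0.13, were not called. A cytosolic anhydrase, Car13, rose from below background to 7.59, 7.92, 7.46, 7.72 and 7.95, at least 3.89-fold (adjusted p = 0.000216), with a fitted difference of 1.86 against 3.05 under the mean of all probe sets. Aqp5 was at least 1.69-fold higher. Slc2a6 and Slc16a7 were called higher with both groups' means under the background level or at it, so that no fold is given: Slc2a6 stood at 2.87 and 3.53 on the sham arrays and at 4.67, 6.56, 6.29, 4.95 and 6.16 on the overload arrays and Slc16a7 at 1.51 and 5.05 on the sham arrays and at 5.36, 5.19, 5.92, 5.49 and 6.1 on the overload arrays. The difference of Slc2a1 changed sign in 5 alternatives and that of Car3 in 2, without a call. Slc2a6, Slc2a4 and Aqp4 missed the threshold without the tamoxifen sham array (adjusted p from 0.0958 to 0.126), and Slc16a7 did so without tamoxifen overload male 2, without the female tamoxifen overload array, without the female vehicle overload array, without the male vehicle overload array, on male arrays alone, after median centring, with no intensity trend, with no treatment term and with a sex term (adjusted p from 0.053 to 0.116). Aqp5, Slc2a6 and Slc16a7 lost the call without the vehicle sham array (adjusted p from 0.064 to 0.384). For Slc16a7 the difference of 2.19 became 0.79 without the vehicle sham array and 3.77 without the tamoxifen sham array. For Aqp4 the difference of -1.46 became -0.91 without the tamoxifen sham array. In the fit without the vehicle sham array, 1 of these transporters, carbonic anhydrases and aquaporins was called higher and 10 lower, with 3 and 5 without the tamoxifen sham array. Of 26 measured amino acid transporters 6 were called higher and 2 lower (23.1% and 7.69%), with a median of 0.13, but -0.09 after quantile normalization and -0.22 after median centring; the counts were 4 and 6 after median centring. Slc1a4, a carrier of neutral amino acids, stood at 5.35 and 6.53 on the sham arrays and at 7.58, 7.7, 7.94, 7.9 and 8.4 on the overload arrays, a difference of 1.89 ± 0.27 (adjusted p = 0.000787). Slc7a7, which exports basic amino acids and is strong in macrophages, differed by 1.8 ± 0.24 (adjusted p = 0.000553). Slc36a4 and Slc38a1 differed by 1.46 ± 0.21 and 1.27 ± 0.27, and the glutamine carrier Slc38a3 by -0.91 ± 0.22 (adjusted p = 0.0134). Slc38a3 had no call without the tamoxifen sham array, with the mean of all probe sets and with no intensity trend (adjusted p from 0.0718 to 0.191), and Slc38a1 and Slc38a3 had none without the vehicle sham array (adjusted p from 0.0691 to 0.114). For Slc38a1 the difference of 1.27 became 2.25 with the mean of all probe sets and 0.83 without the vehicle sham array. After removal of the vehicle sham array, 6 of these amino acid transporters were called higher and 0 lower, with 4 and 0 without the tamoxifen sham array and 7 and 4 without the male vehicle overload array.

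**Figure D4:**
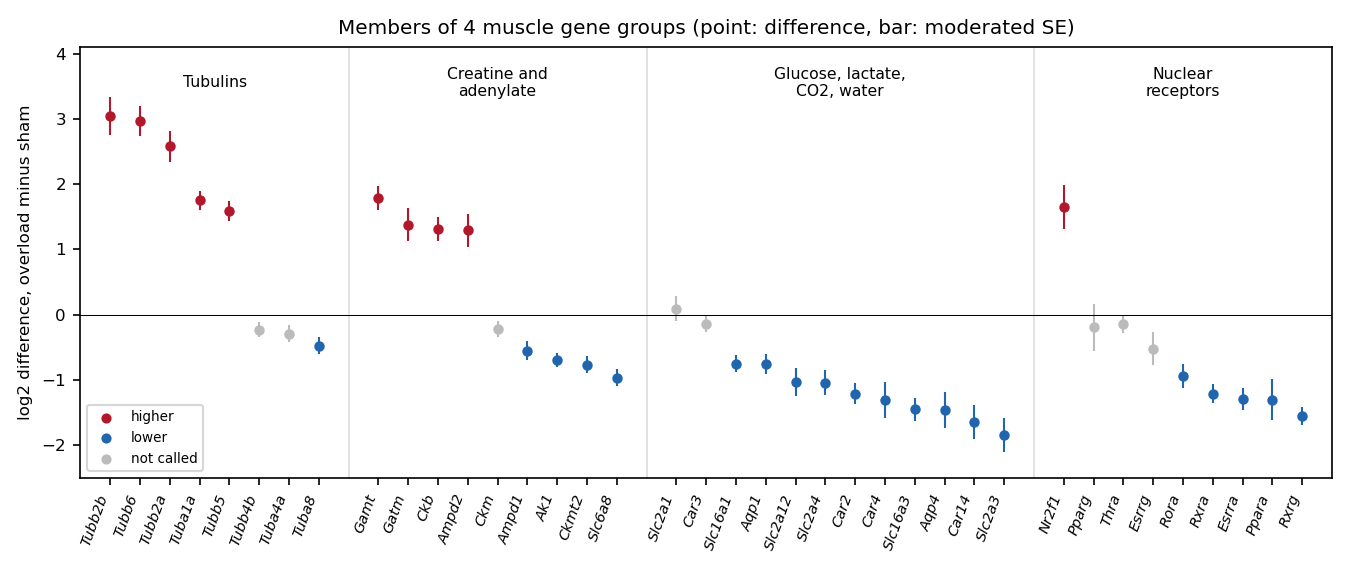
Log2 difference (overload minus sham, vertical axis, with the moderated SE as bar) of 38 members of 4 muscle gene groups, red for called higher, blue for called lower and grey for not called. The members drawn were chosen after their values were seen, and near-background members such as Car13 are left out. Called members drawn lie on both sides of 0 among tubulins, creatine genes and nuclear receptors, a spread that depends on the choice of members. Tubb2b is at 3.04 and Tuba8 at -0.48, and Gamt at 1.79 and Slc6a8 at -0.97. Tuba8 is the only tubulin drawn that was called lower. It lost the call on male arrays alone, with a sex term and on removal of the vehicle or the tamoxifen sham array.

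The creatine system buffers ATP in contracting fibres, and its genes changed by member. Creatine is made by Gatm and Gamt, taken up by Slc6a8 and charged by creatine kinases. Of 25 measured creatine and adenylate genes 9 were called higher and 7 lower (36% and 28%), with a median of 0.12, but -0.23 after median centring; the counts were 9 and 10 after median centring. Gamt stood at 8.7 and 9.07 on the sham arrays and at 10.75, 11.07, 10.56, 10.4 and 10.54 on the overload arrays, a difference of 1.79 ± 0.18 (adjusted p = 0.000125). Gatm differed by 1.38 ± 0.25. The creatine transporter Slc6a8 differed by -0.97 ± 0.13 (adjusted p = 0.000512) and the mitochondrial kinase Ckmt2 by -0.77 ± 0.13 (adjusted p = 0.00182), while the fibre kinase Ckm, at -0.22 ± 0.13, was not called and the brain-type kinase Ckb differed by 1.31 ± 0.18 (adjusted p = 0.000638); these 4 were chosen after their values were seen. In adenosine metabolism Ada, which deaminates adenosine, stood at 5.51 and 6.22 on the sham arrays and at 7.35, 6.79, 7.53, 7.72 and 8.11 on the overload arrays, a difference of 1.56 ± 0.28 (adjusted p = 0.00297), and Adk, which phosphorylates it, at 13.26 and 13.36 on the sham arrays and at 12.37, 11.98, 12.18, 12.36 and 12.25 on the overload arrays, a difference of -1.09 ± 0.13 (adjusted p = 0.000258). The groups did not overlap for either enzyme. Ak5 differed by 1.48 ± 0.39. Ckm was called lower after median centring (-0.57) and with the mean of all probe sets (-0.71), and stood at 0.08 after quantile normalization. Ckmt2 missed the threshold without the tamoxifen sham array (adjusted p = 0.0517), and Ak5 did so without the vehicle sham array, on male arrays alone, with the mean of all probe sets and after quantile normalization (adjusted p from 0.0593 to 0.235). For Ak5 the difference of 1.48 became 0.83 with the mean of all probe sets, 0.68 without the vehicle sham array and 2.39 without the tamoxifen sham array. For Adk the difference of -1.09 became -0.63 with the mean of all probe sets. For Ckmt2 the difference of -0.77 became -0.49 after quantile normalization. Omitting the tamoxifen sham array, 7 of these creatine and adenylate genes were called higher and 2 lower.

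Substrate adaptors of ubiquitin ligases included a family with called falls and no called rise in the main fit. Asb proteins join targets to cullin 5 ligases, and several are found mainly in striated muscle. Of 18 measured Asb genes 0 were called higher and 9 lower (0.0% and 50%), against 17.0% and 10.8% of all genes, with a median of -0.62. Asb14 stood at 12.06 and 12.12 on the sham arrays and at 10.16, 9.98, 10.14, 10.04 and 9.56 on the overload arrays, a difference of -2.1 ± 0.16 (adjusted p = 3.5e-05). Asb10 stood at 11.11 and 10.93 on the sham arrays and at 9.83, 9.79, 9.25, 9.49 and 9.12 on the overload arrays, a difference of -1.48 ± 0.14 (adjusted p = 9.66e-05). Asb4 and Asb11 differed by -1.4 ± 0.22 and -1.18 ± 0.26. For all 4 genes each overload array was lower than both sham arrays. Asb4 and Asb11 lost the call without the tamoxifen sham array (adjusted p from 0.0608 to 0.159), and Asb11 did so with no intensity trend (adjusted p = 0.0628). Without the tamoxifen sham array, 0 of these Asb genes were called higher and 2 lower, with 1 and 9 without the female tamoxifen overload array. With a sex term the counts were 1 and 9, and on male arrays alone 1 and 8. Differences of single members ran from -2.1 to 2.06, the highest not called in the main fit. The myogenic E-box CAGCTG was in 3 of 23 windows of 250 bases before Asb starts (13%), the same share as in all windows (13%). Kelch-like proteins serve cullin 3. Of 20 measured kelch-like genes 4 were called higher and 4 lower (20% and 20%), with a median of 0.03, but -0.32 after median centring; the counts were 5 and 6 after quantile normalization and 3 and 8 after median centring. Klhl13 stood at 8.4 and 9.05 on the sham arrays and at 10.76, 11.08, 11.18, 10.96 and 10.94 on the overload arrays, a difference of 2.23 ± 0.16 (adjusted p = 2.02e-05). Kbtbd11 differed by 1.2 ± 0.25, while Kbtbd13, a nemaline myopathy gene, and Klhl21 differed by -1.22 ± 0.19 and -1.22 ± 0.19. Kbtbd11 had no call without the vehicle sham array (adjusted p = 0.0895), and Kbtbd11 and Klhl21 had none with the mean of all probe sets (adjusted p from 0.234 to 0.421). For Kbtbd11 the difference of 1.2 became 0.71 with the mean of all probe sets. For Klhl21 the difference of -1.22 became -0.72 with the mean of all probe sets. Leaving out the vehicle sham array, 2 of these kelch-like genes were called higher and 3 lower.

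Chaperones were called at shares near those of all genes (17.0% and 10.8%), and membrane-stabilising proteins changed by member. Of 36 measured chaperones 6 were called higher and 4 lower (16.7% and 11.1%), with a median of 0.1, but -0.25 after median centring; the counts were 0 and 11 after median centring. Differences of single members ran from -1.71 to 0.78. Dnajb5, a heat shock protein 40 family member, stood at 12.63 and 12.38 on the sham arrays and at 11.4, 10.72, 10.93, 10.43 and 10.27 on the overload arrays, a difference of -1.71 ± 0.21 (adjusted p = 0.0004). Unc45b, the myosin chaperone, differed by -0.77 ± 0.14, and the small heat shock proteins Hspb8 and Hspb1 by 0.78 ± 0.19 and 0.71 ± 0.13. Unc45b, Hspb8 and Hspb1 missed the threshold without the tamoxifen sham array (adjusted p from 0.0708 to 0.101), and Hspb8 did so without the vehicle sham array, with the mean of all probe sets and with no intensity trend (adjusted p from 0.0782 to 0.218). Hspb8 and Hspb1 lost the call after median centring (adjusted p from 0.148 to 0.163). For Hspb8 the difference of 0.78 became 0.34 with the mean of all probe sets. With the removal of the vehicle sham array, 2 of these chaperones were called higher and 3 lower, with 2 and 2 without the tamoxifen sham array. The dystrophin complex ties the cytoskeleton to the matrix, and dysferlin-like proteins reseal the membrane. Of 26 measured membrane complex genes 6 were called higher and 3 lower (23.1% and 11.5%), against 17.0% and 10.8% of all genes. Their median was -0.09, and the counts were 4 and 9 after median centring. Sntb2 (syntrophin beta 2) stood at 6.61 and 7.0 on the sham arrays and at 8.72, 8.27, 8.91, 8.99 and 9.13 on the overload arrays, a difference of 1.95 ± 0.19 (adjusted p = 0.000102). Myof (myoferlin) and Cavin3 differed by 1.3 ± 0.22 and 1.12 ± 0.23, and Capn3, the muscle calpain of limb-girdle dystrophy, by -0.9 ± 0.14 (adjusted p = 0.00125). Myof and Capn3 had no call without the tamoxifen sham array (adjusted p from 0.0563 to 0.0693), and Cavin3 had none without the vehicle sham array (adjusted p = 0.0905). Myof missed the threshold with the mean of all probe sets (adjusted p = 0.0721). In the fit without the tamoxifen sham array, 4 of these membrane complex genes were called higher and 0 lower.

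Genes that charge transfer RNA and start translation were measured next. Of 19 measured synthetases 0 were called higher and 5 lower (0.0% and 26.3%), with a median of -0.2. The counts were 0 and 13 after median centring, which called 1881 of all 18193 genes higher and 4442 lower. The methionyl-tRNA synthetase Mars1 stood at 11.3 and 11.26 on the sham arrays and at 10.53, 10.43, 10.55, 10.36 and 10.17 on the overload arrays, a difference of -0.86 ± 0.12 (adjusted p = 0.00087). Aars, Iars and Yars, for alanine, isoleucine and tyrosine, differed by -0.78 ± 0.11, -0.77 ± 0.13 and -0.73 ± 0.12. Of 44 measured translation factors 5 were called higher and 11 lower (11.4% and 25%), with a median of -0.16; the counts were 9 and 6 after quantile normalization and 1 and 25 after median centring. Eif1a and Eif5a2 differed by 0.97 ± 0.15 and 1.2 ± 0.3, and Eif4ebp2, which holds back the cap-binding protein, and Eif2a by -0.73 ± 0.14 and -0.69 ± 0.13. Eif1a, Eif5a2 and Eif4ebp2 lost the call without the tamoxifen sham array (adjusted p from 0.0502 to 0.248), and Eif2a did so without the vehicle sham array (adjusted p = 0.057). Eif5a2 had no call on male arrays alone, after median centring and after quantile normalization (adjusted p from 0.0508 to 0.08), and Eif5a2 and Eif2a had none with the mean of all probe sets (adjusted p from 0.13 to 0.178). For Eif5a2 the difference of 1.2 became 0.61 with the mean of all probe sets and 0.77 without the tamoxifen sham array. After removal of the vehicle sham array, 4 of these translation factors were called higher and 4 lower, with 1 and 2 without the tamoxifen sham array. These differences are relative to the other genes of an array, since each array was scaled to the same mean, and total RNA per muscle is not shown by them.

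Enzymes that conjugate or oxidise small molecules were called higher less often than all genes and lower at a near share. Of 38 measured conjugation enzymes 4 were called higher and 5 lower (10.5% and 13.2%), against 17.0% and 10.8% of all genes. Their median was -0.28. The counts were 2 and 5 after quantile normalization and 3 and 11 after median centring. Nnmt, which methylates nicotinamide, stood at 6.83 and 7.88 on the sham arrays and at 9.3, 8.99, 9.91, 9.46 and 9.99 on the overload arrays, a difference of 2.1 ± 0.19 (adjusted p = 8.48e-05). Mgst1, a microsomal glutathione transferase, stood at 13.86 and 13.68 on the sham arrays and at 11.73, 12.63, 12.17, 12.62 and 12.53 on the overload arrays, a difference of -1.45 ± 0.23 (adjusted p = 0.00143). Gstm1 differed by -1.45 ± 0.15 (adjusted p = 0.000157). The mitochondrial folate enzyme Aldh1l2 differed by 1.06 ± 0.2. Aldh1l2 missed the threshold without the tamoxifen sham array (adjusted p = 0.1). For Aldh1l2 the difference of 1.06 became 0.68 without the tamoxifen sham array. Omitting the tamoxifen sham array, 2 of these conjugation enzymes were called higher and 4 lower.

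Among transcription factors, nuclear receptors fell more often than they rose. These factors bind hormones, vitamins and lipids, and PPAR, ERR and RXR members control oxidative and lipid metabolism in muscle. Of 33 measured nuclear receptors 3 were called higher and 11 lower (9.09% and 33.3%), with a median of -0.45; the counts were 2 and 22 after median centring. Rxrg stood at 10.75 and 10.44 on the sham arrays and at 8.97, 9.28, 8.96, 8.86 and 9.04 on the overload arrays, a difference of -1.55 ± 0.14 (adjusted p = 6.64e-05). Ppara, the fatty acid sensor, differed by -1.3 ± 0.32 (adjusted p = 0.0132). Other falls, chosen after their values were seen, were Esrra at -1.29 ± 0.17 (adjusted p = 0.000538), Rxra at -1.21 ± 0.15 (adjusted p = 0.000393) and Rora at -0.94 ± 0.18 (adjusted p = 0.00408), while Esrrg, at -0.52 ± 0.25, and Thra, at -0.14 ± 0.14, were not called. Vdr, the vitamin D receptor, was below background on both sham arrays and above it on 4 of 5 overload arrays, at least 1.19-fold higher (adjusted p = 0.0031). Nr2f1 (COUP-TF1) stood at 5.85 and 5.39 on the sham arrays and at 6.73, 6.95, 7.69, 7.33 and 7.86 on the overload arrays, a difference of 1.65 ± 0.34 (adjusted p = 0.0058). Esrrg and Thra were called lower after median centring, and Esrrg also on male arrays alone and without the female vehicle overload array (Esrrg -0.87, -0.7 and -0.73). Ppara, Nr2f1 and Rora lost the call without the tamoxifen sham array (adjusted p from 0.053 to 0.342), and Rora did so without the vehicle sham array (adjusted p = 0.0609). Rxra had no call with the mean of all probe sets (adjusted p = 0.0659), and Ppara had none with no intensity trend (adjusted p = 0.0686). For Ppara the difference of -1.3 became -0.68 without the tamoxifen sham array. For Nr2f1 the difference of 1.65 became 0.99 without the tamoxifen sham array. For Esrra the difference of -1.29 became -0.65 with the mean of all probe sets. For Rxra the difference of -1.21 became -0.76 with the mean of all probe sets. Without the vehicle sham array, 2 of these nuclear receptors were called higher and 5 lower, with 1 and 5 without the tamoxifen sham array. Of 16 measured Kruppel-like factors 2 were called higher and 2 lower (12.5% and 12.5%), against 17.0% and 10.8% of all genes. Their median was 0.22, but -0.13 after median centring, where the counts were 1 and 4. Klf14 stood at 5.3 and 5.89 on the sham arrays and at 7.09, 7.05, 7.69, 6.99 and 7.29 on the overload arrays, a difference of 1.59 ± 0.3 (adjusted p = 0.00345). The glucocorticoid-induced Klf15 and Klf9 differed by -1.22 ± 0.24 (adjusted p = 0.00457) and -0.86 ± 0.19 (adjusted p = 0.00722), and Klf3 by 0.6 ± 0.14 with overlapping groups. Klf15 and Klf9 missed the threshold without the tamoxifen sham array (adjusted p from 0.126 to 0.163), and Klf3 did so without the vehicle sham array, with the mean of all probe sets and after median centring (adjusted p from 0.152 to 0.57). Klf9 and Klf3 lost the call with no intensity trend (adjusted p from 0.0572 to 0.0635). For Klf3 the difference of 0.6 became 0.21 with the mean of all probe sets. Leaving out the vehicle sham array, 1 of these Kruppel-like factors was called higher and 2 lower, with 2 and 0 without the tamoxifen sham array and 4 and 2 without the male vehicle overload array.

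Factors of lineage and development gave some of the clearest rises. Of 26 measured Sox, Runx and Ets genes 7 were called higher and 2 lower (26.9% and 7.69%), with a median of 0.53; the counts were 7 and 4 after quantile normalization and 5 and 5 after median centring. Runx1, which is induced in denervated and regenerating muscle and is a blood cell factor, stood at 6.42 and 7.03 on the sham arrays and at 9.4, 9.84, 10.51, 9.84 and 10.27 on the overload arrays, a difference of 3.19 ± 0.2 (adjusted p = 1.2e-05). Sox11 was below background in sham muscle and stood at 7.61, 8.96, 8.64, 7.78 and 8.26, at least 5.57-fold higher (adjusted p = 0.000518). Sox4 stood at 9.53 and 10.41 on the sham arrays and at 11.65, 12.1, 12.4, 12.27 and 12.58 on the overload arrays, a difference of 2.17 ± 0.15 (adjusted p = 2.02e-05). All overload arrays exceeded both sham arrays for these 3 factors. Sox6, which represses slow fibre genes, went down from 11.7 and 11.57 to a range of 9.99 to 10.9 and a difference of -1.1 ± 0.22 (adjusted p = 0.00482). Sox6 had no call without the tamoxifen sham array (adjusted p = 0.113). For Sox4 the difference of 2.17 became 1.36 with the mean of all probe sets. With the removal of the vehicle sham array, 5 of these Sox, Runx and Ets genes were called higher and 1 lower, with 3 and 0 without the tamoxifen sham array. Genes of limb patterning showed shares near those of all genes: of 45 measured patterning genes 7 were called higher and 6 lower (15.6% and 13.3%), with a median of 0.01, but -0.34 after quantile normalization and -0.34 after median centring; the counts were 3 and 7 after quantile normalization and 3 and 11 after median centring. Tbx18 stood at 6.61 and 6.99 on the sham arrays and at 8.18, 8.04, 8.91, 8.65 and 9.38 on the overload arrays, a difference of 1.76 ± 0.23 (adjusted p = 0.000579). Pbx3, a partner of Hox factors, differed by 1.16 ± 0.18 (adjusted p = 0.00114), the hindlimb factor Tbx4 by 1.16 ± 0.29 and Eya1, a coactivator of homeodomain factors in fast fibres, by -0.97 ± 0.23 (adjusted p = 0.0115). Tbx4 and Eya1 missed the threshold without the tamoxifen sham array and without the vehicle sham array (adjusted p from 0.0512 to 0.201), and Tbx4 did so after median centring and after quantile normalization (adjusted p from 0.0634 to 0.0869). Eya1 lost the call with no intensity trend (adjusted p = 0.0703). In the fit without the tamoxifen sham array, 2 of these patterning genes were called higher and 1 lower. Of 22 measured deacetylase and Mef2 genes 3 were called higher and 5 lower (13.6% and 22.7%), with a median of -0.18; the counts were 2 and 10 after median centring. Sirt7 and Hdac1 differed by 0.9 ± 0.18 and 0.87 ± 0.14, and the mitochondrial sirtuin Sirt3 and Hdac5, which holds Mef2 inactive, by -0.77 ± 0.14 and -0.66 ± 0.13. Sirt7, Hdac1, Sirt3 and Hdac5 had no call without the tamoxifen sham array (adjusted p from 0.057 to 0.138). For Sirt7 the difference of 0.9 became 0.57 without the tamoxifen sham array. After removal of the vehicle sham array, 2 of these deacetylase and Mef2 genes were called higher and 2 lower, with 0 and 0 without the tamoxifen sham array.

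The leading genes were set side by side within each treatment, where each sham side is a single array. Serpinb1a differed by 4.26 with vehicle and 4.06 with tamoxifen. Plagl1 differed by 4.18 with vehicle and 4.26 with tamoxifen. Cdh11 differed by 3.22 with vehicle and 4.1 with tamoxifen. Among the falls, Pfkfb3 differed by -2.94 and -2.3, Asb14 differed by -1.99 and -2.21 and Rxrg by -1.62 and -1.49. None of these 6 passed the test of the interaction (adjusted p from 0.931 to 0.998 in limma), which does not show that the responses were equal. Because both sham arrays were of males, the male arrays were also compared alone (3 against 2). There Serpinb1a differed by 4.27, Plagl1 by 4.06, Cdh11 by 3.8, Pfkfb3 by -2.44, Asb14 by -2.22 and Rxrg by -1.48, each close to its value over all arrays. That fit shares all of its arrays with the main one, and these 6 were picked as leading genes, so such closeness says little about sex. Of the 184 genes named by rule, 11 lost the call on male arrays alone.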

How the data were processed

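Muscle RNA from 7 samples was measured on 7 Affymetrix expression arrays of the mouse genome, 1 per sample. The deposited table holds intensities of 45101 probe sets, not on a log scale. The mean of each array without its lowest and highest 2% is 500, so the authors had scaled each array as a whole. Per the submitters' processing notes, Partek is among the tools, with no version or role named, and the summary of probes into probe sets is not stated there. Scaling of this kind cannot show a change of total RNA per muscle.

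From these intensities log2(value + 1) was computed. Of the probe sets, 34945 had 1 gene symbol in the platform annotation, 932 had several, 9160 had none and 64 were controls. Among those with 1 symbol, 34741 matched a RefSeq gene by Entrez identifier and 204 kept the annotation's symbol. The probe set with the highest mean stood for each of 18193 genes, of which 9183 had only 1. All samples were mapped to a group from their titles. limma 3.58.1 in R 4.3.3 was fitted over the 7 arrays with surgery and treatment as terms and an intensity trend. Tests were two-sided, p-values were Benjamini-Hochberg adjusted over all genes, and 0.05 was the threshold. The interaction was fitted on the 4 group means. No test was made of a gene list. The 36 families, the 13 marker lists, the genes left out as matrix, myoblast or already described and the comparison itself were chosen with earlier results of these data known.

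The background level was the 95th percentile of the mean log2 level of the receptor genes named above. Genes were named by a rule. It took the 15 largest rises and the 15 largest falls among called genes whose groups did not overlap and whose brighter group lay above background on every array. From each family it took up to 4 called members with the largest difference and the largest called member of the opposite direction, which gave 184 genes in all. Genes described as chosen after their values were seen are exceptions, as are the Pax7 and marker values. Promoter stretches came from RefSeq (GRCm38.p6), and motifs were searched as exact letters on both strands. The CArG box was searched by its degenerate consensus.

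Tested on simulated data of 18193 genes with 200 changed (10 draws), the fit of overload against sham found 39.5% of genes changed 2-fold and 63.9% of those changed 4-fold, with 6.8% false among the genes called. The simulated noise was independent between genes, with no shift shared by an array. In the data 5065 genes were called, far more than the 200 changed there. These rates therefore need not hold for the comparison itself. The alternatives were a sex term, male arrays alone, no treatment term, quantile normalization, median centring, a pseudocount of 16, genes above background only, no intensity trend, the mean of all probe sets and leaving out each array. A sex term together with no intensity trend was added after the data were seen. The number of arrays limits the precision. Python 3.11.15, pandas 2.3.3, numpy 2.4.6 and matplotlib 3.10.9 were also used.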

Additional observations from a re-analysis of the deposited data

Results flagged for a closer look

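In 8 of the 184 genes named by rule, the level on 1 of the 5 overload arrays lay apart from the other 4 relative to their range. Chance alone gives about 1 in 20 genes, so the number is no larger than chance gives. Slc30a2 stood at 4.96 on the female tamoxifen overload array, against 6.48 to 7.03 on the others, and Cd27 stood at 2.58 on tamoxifen overload male 1, against 4.03 to 4.6. Yars stood at 9.73 on the same array, a small step above 9.64 to 9.67. Anxa5 stood at 12.24 on the male vehicle overload array, against 12.87 to 12.97. The remaining 4 of the 8 fell on tamoxifen overload male 2. There Mettl11b stood at 7.3 (7.96 to 8.12 on the others), Evpl at 5.62 (3.05 to 3.57), Tnfrsf11b at 7.32 (5.53 to 6.01) and Gusb at 11.14 (10.59 to 10.71). That array also had the highest 3'/5' signal ratios, and the part of this in the 4 values was not tested. Levels of Evpl and Cd27 lay under the background level on every overload array.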

How the results depend on the processing

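The comparison called 3094 genes higher and 1971 lower. Median centring gave 1881 and 4442, and it moved the median difference of all genes to -0.311, while quantile normalization moved it to -0.108 and gave 2346 and 2316. With no intensity trend 2374 were higher and 1177 lower. A sex term and no intensity trend together, a fit added after the data were seen, gave 1133 and 399. Leaving out 1 array gave between 1514 and 2990 higher and between 558 and 1951 lower, with both lowest counts without the tamoxifen sham array. No genes were called for the interaction in limma in either fit (1059 and 1205 at an unadjusted p under 0.05). The other settings kept both counts within 1.5 times. Family counts were less steady. Of 72 counts of family members called higher or lower, 59 moved by more than 1.5 times with a sex term and no intensity trend. Without the tamoxifen sham array 41 moved, and 22 without the vehicle sham array. After median centring 33 moved, 16 with no intensity trend and 14 after quantile normalization. In each remaining setting 0 to 8 moved. A count that went to or from 0 is included.

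All 184 genes named by rule were picked by their call in the main fit of these same arrays. Kept directions and kept calls therefore follow in part from that choice, and their share over all genes was not counted. None of the 184 genes changed direction in any alternative. Calls were lost in 59 of them without the tamoxifen sham array, 33 without the vehicle sham array and 3 to 6 without an overload array. Without the intensity trend 21 were lost, 19 with the mean of all probe sets, 14 after median centring, 11 on male arrays alone, 9 after quantile normalization, 5 each with a sex term and with no treatment term, and 1 with a pseudocount of 16. Of the 170 with a mean above background none was lost in the fit of such genes alone. With a sex term and no intensity trend 81 were lost (adjusted p from 0.0516 to 0.218 in limma): Aars, Ak5, Aldh1l2, Anxa4, Aqp5, Asb4, Atp1b1, Atp1b3, Capn3, Cavin3, Cd27, Cdh13, Cdh2, Crip3, Eif1a, Eif2a, Eif4ebp2, Eif5a2, Evpl, Eya1, Fam240b, Fcgr1, Fgf1, Fgf11, Fgfr4, Fxyd5, Gatm, Hbegf, Hdac1, Hdac5, Hspb1, Hspb8, Iars, Kbtbd11, Kbtbd13, Kcne4, Klf15, Klf3, Klf9, Klhl21, Lgals3bp, Lgals9, Ly6g6d, Myof, Npc1, Nr2f1, Pde10a, Pfn2, Pla2g7, Ptgds, Rgs16, Rgs19, S100a1, S100a13, S100a4, S100a6, Sema3f, Sema6c, Serpina3n, Serpinb8, Sfrp4, Sirt3, Sirt7, Slc11a1, Slc16a7, Slc2a6, Slc30a2, Slc36a4, Slc38a1, Slc38a3, Slc40a1, Snrpn, Socs2, Sox6, Spi1, Steap1, Steap3, Tbx4, Tnfrsf11b, Unc45b and Yars. Of the genes chosen after their values were seen, Tuba8, Slc2a4, Aqp4, Slc6a8, Ckmt2, Ckb, Esrra and Rora also missed the threshold there (adjusted p from 0.0504 to 0.206 in limma).

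Among genes chosen after their values were seen and not called, the difference took the other sign for Slc2a1 after quantile normalization (-0.016), after median centring (-0.264), with the mean of all probe sets (-0.092) and without the tamoxifen sham array or the female vehicle overload array. Leaving out 1 array gave Slc2a1 between -0.048 and 0.237. It did so for Car3 after quantile normalization (0.127) and with the mean of all probe sets (0.04), and for Tuba4a (0.017) and Ckm (0.08) after quantile normalization. The causes of these changes were not tested. No paired analysis was possible because the labels number only the tamoxifen overload males, so the groups share no numbers. With 2 sham arrays, genes near background have differences of low precision.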

Other observations

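Markers of the other cell types of muscle gave the following values, with no explanation offered. Of 6 tendon cell markers 4 were called higher, with sums of 19210 and 22733 on the sham arrays and from 26569 to 53438 on the overload arrays. 3 were called without the vehicle sham array and 2 without the tamoxifen one. Tnmd (tenomodulin) led them, at 10.51 and 10.79 on the sham arrays and at 13.27, 12.13, 13.65, 13.26 and 13.23 on the overload arrays, a difference of 2.4 ± 0.26 (adjusted p = 0.000207 in limma). Of 10 endothelial markers 3 were called higher, with sums of 7740 and 8703 against 7716 to 11941, but 1 without the vehicle sham array and 0 without the tamoxifen one. Smooth muscle and pericyte markers had 1 of 9 called each way, with sums of 52958 and 54247 against 50709 to 55505. Of 6 adipocyte markers 0 were called in limma (sums of 13691 and 16054 against 9833 to 16334). With a sex term and on male arrays alone 3 of the 6 were called lower (medians of -1.12 and -1.09, against -0.62), and 2 were without the female tamoxifen overload array. Of 6 Schwann and nerve markers 1 was higher (4110 and 5964 against 5604 to 9639). Of 3 erythroid markers 1 was lower, with sums of 1451 and 1471 against 711 to 1091.

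Of 8 satellite cell markers 3 were called higher, with sums of 19789 and 22515 on the sham arrays and from 19734 to 26256 on the overload arrays. These included Vcam1, which macrophages and endothelial cells also express, with 2.2 ± 0.23 (adjusted p = 0.000144), and the myogenic factor Myf5, which differed by 1.29 ± 0.4 (adjusted p = 0.0355 in limma). Pax7, at 0.82 ± 0.8, was not called. The count was 2 without the vehicle sham array and 1 without the tamoxifen one. Des stands in both the satellite cell list and the smooth muscle list.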
